A study of Mus musculus with 4 samples.

Results

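The genes described here are 10 members of the unfolded protein response and the integrated stress response, taken by symbol from the 32285 genes listed for each section: Hspa5, Pdia4, Sdf2l1, Herpud1, Xbp1, Atf4, Ddit3, Trib3, Asns and Chac1. They were measured by Visium spatial transcriptomics, which counts unique molecular identifiers (UMIs) of captured RNA on an array of barcoded spots, each of which can cover several cells. The 4 sections, 10 µm thick, came from left kidneys of male wild type C57BL/6J mice aged 7 to 8 weeks. There were 2 sections of normal control kidneys, and 2 of kidneys taken 24 h after both renal pedicles had been clamped for 30 min (ischemia reperfusion injury). The study describes 2 mice per condition, with 2 technical replicates of each mouse. Which mouse gave which section is not stated in the sources. The p-values below therefore rest on differences between sections, which may be technical, and those by zone have a further limit given with them. In sums over tissue, fewer cells of a type and less RNA per cell cannot be told apart.

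When unfolded proteins build up in the endoplasmic reticulum (ER), the sensors IRE1, ATF6 and PERK turn on chaperones such as BiP, folding enzymes and the machinery that sends misfolded proteins to the proteasome. PERK, together with kinases that sense amino acid shortage, heme deficit or viral RNA, also phosphorylates eIF2α. This slows general translation while ATF4 protein is made, and ATF4 and its partner CHOP then activate genes of amino acid supply, feedback and cell death. Both branches are known to be engaged in kidney tubules after ischemia.

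The responses act through short promoter elements, and the stretches that carry them in Hspa5, Herpud1, Asns and Chac1 are shown first. Promoter windows of 250 bases before and 50 bases after the gene start, from RefSeq's annotation of GRCm38.p6, were found for 10 of 10 members. The ER stress element (ERSE, which is CCAAT, then 9 bases of any kind, then CCACG, searched on both strands like the others) occurred in 0.119% of all 32851 windows and, among the members, in that of Hspa5 at positions -65 to -47 from the start. The related ERSE-II (ATTGG, then 1 base of any kind, then CCACG) occurred in 0.0365% of windows and in that of Herpud1 at -52 to -42. The core of the C/EBP-ATF response element (CARE, TTNCATCA), through which ATF4 acts, occurred in 3.97% of windows and in 4 members, namely Chac1 at -193 to -186, Herpud1 at -112 to -105, Asns at -23 to -16 on the reverse strand, and Trib3 at 15 to 22 after the start. Capitals mark these motifs, which did not overlap one another, and all sequences run 5′ to 3′ along the gene. The Hspa5 and Asns stretches lie inside the longest gene model that GENCODE gives for these genes. A match is a string of letters and not a measured binding site.
Hspa5, chr2:34772020-34772049, plus strand: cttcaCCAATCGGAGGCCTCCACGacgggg
Herpud1, chr8:94386299-94386408, plus strand: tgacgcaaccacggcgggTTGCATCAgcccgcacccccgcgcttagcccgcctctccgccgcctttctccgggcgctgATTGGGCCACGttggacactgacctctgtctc
Asns, chr6:7693214-7693243, minus strand: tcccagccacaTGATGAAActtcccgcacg
Chac1, chr2:119351022-119351101, plus strand: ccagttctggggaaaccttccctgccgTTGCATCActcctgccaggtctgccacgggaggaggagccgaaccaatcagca

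The sections held 25957128 to 44528078 UMIs over 2401 to 2682 tissue spots, with medians of 8656 to 16162 UMIs per spot, and the highest values of both were those of normal section 1. Mitochondrial genes took 4.91% and 5.21% of UMIs in normal and 3.36% and 3.99% in ischemic sections. Counts were summed per section and compared as CPM (counts per 1e+06 counts, scaled by edgeR's TMM factors). As a check of the labels, the injury markers Havcr1 and Lcn2 were higher in ischemic sections by 9.64 and 8.78 on the log2 scale. Of the marker lists, 6 of 6 injured tubule and 6 of 6 neutrophil genes rose, and 7 of 7 proximal tubule, 5 of 5 T cell, 5 of 5 red blood cell and 4 of 4 adipocyte genes fell, as did the 5 plasma and B cell genes tested. Of 7 macrophage and monocyte genes 1 rose and 4 fell, and of 5 fibroblast genes 4 rose and 1 fell. The summed neutrophil list was at 1.62 and 2.64 CPM in normal and 182 and 182 CPM in ischemic sections (CPM of lists without TMM scaling), and its part in the changes below was not tested.

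Ischemic sections carried more RNA of 9 of the 10 members and less of Herpud1. The largest rises were those of the amino acid response genes Chac1, Trib3 and Asns, from 5.34 to 8.29-fold, while the ER chaperone BiP (Hspa5) rose 1.59-fold. All 10 passed at an adjusted p of 0.05 in edgeR, and for none did the ranges of the groups overlap. This count has to be read against a background in which 60.6% of the 15305 genes tested were called, 31% higher and 29.7% lower. The members' median log2 difference was 0.77 against 0.04 over all genes tested. With library sizes alone as the scaling, the median of all genes moved to 0.31 and the share of calls that were higher from 51.1% to 67.0%, and the 10 members kept their directions and calls.

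**Figure D1:**
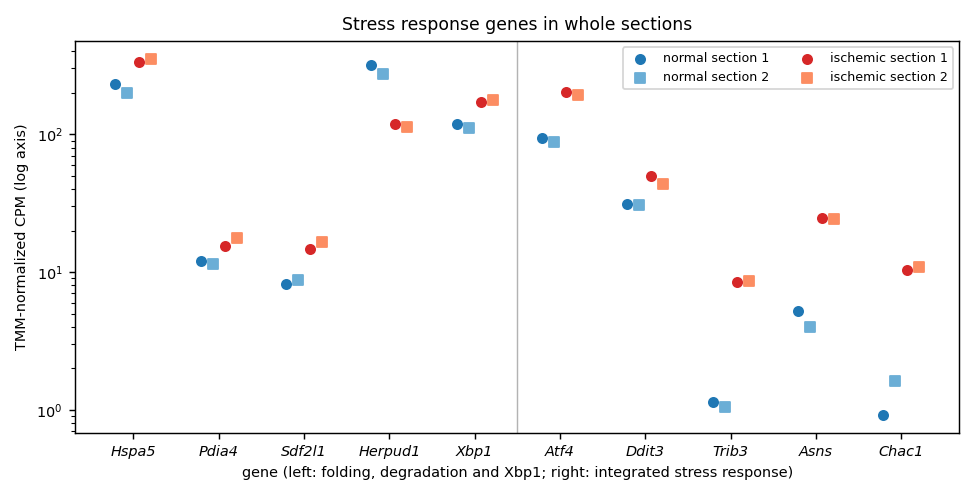
Level of each member in each whole section, as TMM-normalized CPM on a log axis, with normal sections in blue and ischemic sections in red; circles are section 1 and squares section 2 of a condition. Herpud1 is the member whose red symbols (118 and 113 CPM) lie below the blue ones (320 and 274 CPM), and the gap between conditions is widest for Trib3, Asns and Chac1.

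Among the ER chaperones and folding enzymes, Hspa5 encodes BiP, the main Hsp70 chaperone of the ER lumen and the regulator of the stress sensors. It was at 232 and 200.3 CPM in the normal sections and at 332 and 354 CPM in the ischemic sections, a log2 difference of 0.67 (SE 0.13, n = 2 sections per group, adjusted p = 0.00206, edgeR). Pdia4, a protein disulfide isomerase, was at 12.0 and 11.5 CPM in normal and 15.5 and 17.7 CPM in ischemic sections. It rose by 0.49 (SE 0.11, edgeR adjusted p = 0.00426), the smallest change of the set. Sdf2l1, a cofactor of BiP and its J-domain proteins, was at 8.24 and 8.77 CPM in normal and 14.6 and 16.5 CPM in ischemic sections, a log2 difference of 0.87 (SE 0.12, edgeR adjusted p = 0.000209). The ischemic sections lay above the normal ones for each of these genes. Without ischemic section 2, Hspa5 (log2 difference 0.63, adjusted p = 0.0726) and Pdia4 (0.41, adjusted p = 0.0788) no longer passed the edgeR test.

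Herpud1 encodes an ER membrane protein that helps to organise the ubiquitin ligase complex of ER-associated degradation (ERAD), and it is a textbook target of the same stress sensors as Hspa5. In these sections it moved the other way. It was at 320 and 274 CPM in normal sections and at 118 and 113 CPM in ischemic sections, 2.57-fold lower. Its log2 value fell by 1.36 (SE 0.13, edgeR adjusted p = 2.4e-05). Both ischemic sections lay far below both normal sections, and the counts behind the values were large, from 3240 to 11821 per section. An annotated antisense gene, Gm15890, overlaps Herpud1, and whether strand was used in counting was not stated.

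Xbp1 encodes the transcription factor whose RNA is spliced by IRE1, a step that these gene counts do not resolve. It was at 119 and 110 CPM in normal and 173 and 176 CPM in ischemic sections, a 1.52-fold rise (log2 0.61, SE 0.11, edgeR adjusted p = 0.00139). Atf4, the central transcription factor of the integrated stress response, is regulated mostly through its translation, so its RNA is only part of its activity. Its RNA was at 94.2 and 87.4 CPM in normal and 204 and 194 CPM in ischemic sections, a 2.19-fold rise (log2 1.13, SE 0.11, edgeR adjusted p = 3.56e-05). The replicate sections of both genes stood close together, with ranges that did not overlap between conditions.

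Ddit3 encodes CHOP, the pro-apoptotic partner of ATF4. It was at 31.2 and 30.6 CPM in normal and 49.9 and 43.3 CPM in ischemic sections, a 1.51-fold rise (log2 0.59, SE 0.10, edgeR adjusted p = 0.00088). Ddit3 overlaps Mars and Gm4189 on the opposite strand, so its counts carry the same doubt about strand. Its ischemic levels lay above both normal levels, and its change differed between zones, as given below.

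The targets of ATF4 changed most. Trib3, a pseudokinase that feeds back on ATF4 and CHOP, was at 1.14 and 1.05 CPM in normal sections, from 42 and 29 counts, and at 8.48 and 8.66 CPM in ischemic sections, from 288 and 248 counts. The difference was 7.83-fold (log2 2.96, SE 0.19, edgeR adjusted p = 2.1e-06). Asns, which makes asparagine from aspartate and glutamine, was at 5.18 and 3.99 CPM in normal and 24.6 and 24.4 CPM in ischemic sections, 5.34-fold higher (log2 2.40, SE 0.13, edgeR adjusted p = 1.03e-06). Chac1, which degrades glutathione, was at 0.922 and 1.63 CPM in normal sections, from 34 and 45 counts, and at 10.3 and 10.9 CPM in ischemic sections. It was 8.29-fold higher (log2 3.09, SE 0.23, edgeR adjusted p = 6.2e-06). For each of the 3 targets the ischemic sections differed from each other far less than from the normal sections, and the normal values of Trib3 and Chac1 rested on few counts.

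Because the sections differed in depth, the share of spots with at least 1 count was also compared after each spot had been thinned to 2000 UMIs, which left out 48 and 150 shallower spots in normal and 58 and 105 in ischemic sections. Without thinning, Trib3 was seen in 1.61% and 1.08% of spots in normal and 9.95% and 7.77% in ischemic sections. After thinning it was seen in 0.0779% and 0.197% of spots in normal and in 1.62% and 1.40% in ischemic sections. Thinned Asns was seen in 0.896% and 0.869% of spots in normal and in 4.10% and 4.39% in ischemic sections (unthinned 6.50% and 3.88% against 24.5% and 20.2%). Thinned Chac1 was seen in 0.273% and 0.434% against 1.58% and 1.91% (unthinned 1.22% and 1.64% against 10.7% and 9.07%). Every ischemic share lay above every normal share for these targets. Thinned Herpud1 was seen in 38.9% and 42.5% of spots in normal and in 22.2% and 21.7% in ischemic sections (unthinned 92.3% and 82.3% against 73.3% and 62.2%). At equal depth the order of the conditions was therefore that of the CPM for these 4 genes, and it was also so for the other 6 members.

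To place the changes within the kidney, spots were placed in 5 zones (cortex, outer stripe, inner stripe, inner medulla and pelvis, the stripes being layers of the outer medulla) by marker genes summed over a spot and those next to it. The outer stripe, which holds the straight part of the proximal tubule and is known as the zone most sensitive to ischemia, took 803 and 820 spots of normal and 621 and 681 of ischemic sections. The markers themselves fell with ischemia, 6 of 6 for the cortex, 5 of 5 for the outer stripe, 4 of 4 for the inner stripe and 5 of 6 for the pelvis, while 2 of the 5 inner medulla markers rose and 1 fell, so zones of ischemic sections are less certain. The spots called inner medulla went from 134 and 224 in normal to 292 and 300 in ischemic sections. In them 4 of the 5 markers fell, and the summed markers were at 4110 and 4248 CPM (without TMM scaling), below the 6283 and 6207 CPM of the ischemic outer stripe. Without the neighbours, 61.2% and 62.0% of the ischemic outer stripe spots and 80.6% and 84.6% of the ischemic cortex spots kept their zone, but 28.3% and 28.5% of the ischemic pelvis spots. Counts were summed per section and zone, and the 20 sums were tested in 1 edgeR model. That model treats the sums of a section as independent although they share a library, so its p-values can be too small. Tests between zones take out the section level, and their p-values measure how zone differences vary between sections. With library sizes alone as the scaling, the share of calls that were higher moved from 50.4% to 67.6% in the cortex, 48.2% to 69.3% in the outer stripe, 46.1% to 66.7% in the inner stripe and 39.6% to 50.5% in the inner medulla. Leaving out 1 ischemic section leaves 1 sum for each ischemic zone, which is then assumed to vary like the other groups.

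**Figure D2:**
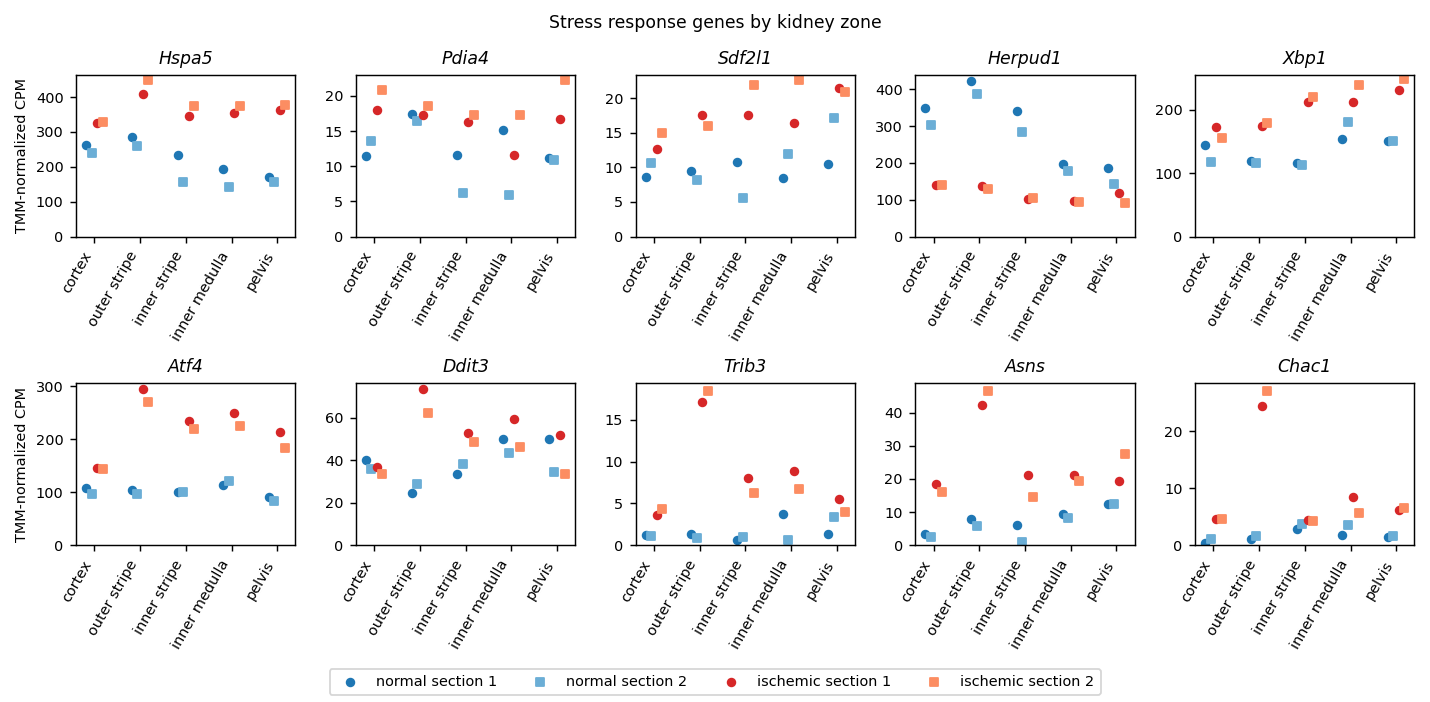
Level of each member in each zone of each section, as TMM-normalized CPM from 0, with normal sections in blue and ischemic sections in red. Trib3, Asns and Chac1 peak in the outer stripe of both ischemic sections, where Chac1 reaches 24.3 and 27.1 CPM. The ischemic symbols of Ddit3 lie above the normal ones by the most in the outer stripe. In the cortex the Ddit3 symbols of the 2 conditions overlap.

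In the outer stripe 8 members rose and 1 fell, where 56.9% of the 14174 genes tested were called, 27.4% higher and 29.5% lower. The ATF4 targets again had the highest log2 differences. Chac1 was at 1.17 and 1.66 CPM in the normal outer stripe and at 24.3 and 27.1 CPM in the ischemic one, a log2 difference of 4.19 (SE 0.28, edgeR adjusted p = 3.5e-10). Trib3 was at 1.36 and 0.895 CPM in normal and 17.1 and 18.4 CPM in ischemic sections (log2 difference 3.92, SE 0.30, edgeR adjusted p = 2e-09). Their ischemic cortex levels were far lower, at 4.61 and 4.62 CPM for Chac1 and 3.67 and 4.39 CPM for Trib3. Asns was at 8.06 and 5.76 CPM in the normal and 42.3 and 46.6 CPM in the ischemic outer stripe, a log2 difference of 2.66 (SE 0.23, edgeR adjusted p = 1.4e-08).

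The transcription factors followed in the outer stripe. Atf4 was at 104 and 97.2 CPM in normal and 295 and 271 CPM in ischemic sections (log2 difference 1.49, SE 0.13, edgeR adjusted p = 1.7e-08). Ddit3 was at 24.6 and 29.0 CPM in normal and 73.7 and 62.4 CPM in ischemic sections (log2 difference 1.35, SE 0.17, edgeR adjusted p = 1.2e-06). The ischemic values of both genes were more than 2 times every normal value of that zone. Sdf2l1 rose by 0.92 (SE 0.21, edgeR adjusted p = 0.00095), Hspa5 by 0.65 (SE 0.17, adjusted p = 0.0028) and Xbp1 by 0.59 (SE 0.14, adjusted p = 0.00108) on the log2 scale. Herpud1 was at 423 and 388 CPM in the normal outer stripe, its highest level of any zone, and at 137 and 129 CPM in the ischemic one, and fell by 1.61 (SE 0.16, edgeR adjusted p = 5.9e-08). Pdia4 was the member with no call there, at 17.5 and 16.4 CPM against 17.2 and 18.6 CPM (log2 difference 0.08, 95% interval -0.33 to 0.48). Hspa5 lost its call when either ischemic section was left out (0.73, adjusted p = 0.0515, without section 1, and 0.59, adjusted p = 0.112, without section 2), and Xbp1 without ischemic section 2 (0.57, adjusted p = 0.0551).

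In the cortex 6 members rose and 1 fell, where 40.1% of genes tested were called, 20.2% higher and 19.9% lower. Asns was at 3.3 and 2.48 CPM in the normal and 18.4 and 16.2 CPM in the ischemic cortex (log2 difference 2.55, SE 0.27, edgeR adjusted p = 3.6e-07), close in size to its change in the outer stripe. Chac1 had a log2 difference of 2.76 (SE 0.35, edgeR adjusted p = 4.4e-06), from 5 and 12 counts in the normal cortex, and Trib3 one of 1.73 (SE 0.32, adjusted p = 0.00026). Atf4 was at 109 and 96.6 CPM in normal and 146 and 144 CPM in ischemic sections (log2 difference 0.50, SE 0.13, edgeR adjusted p = 0.0046). Herpud1 fell by 1.21 (SE 0.16, adjusted p = 4.6e-06), from 349 and 302 to 141 and 140.5 CPM.

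Ddit3 was at 40.0 and 35.7 CPM in the normal cortex and at 36.9 and 33.7 CPM in the ischemic cortex, where the groups overlapped and the log2 difference of -0.10 had a 95% interval of -0.44 to 0.24. With library sizes alone as the scaling, which moves the median of all genes in the cortex to 0.22, it was 0.12. Of the chaperones, Pdia4 rose by 0.63 (edgeR adjusted p = 0.0124) and Sdf2l1 by 0.54 (adjusted p = 0.0399). Hspa5 (log2 difference 0.37, 95% interval 0.02 to 0.73, edgeR adjusted p = 0.0881) and Xbp1 (0.32, interval 0.04 to 0.60, adjusted p = 0.0644) did not pass. Both passed with library sizes alone (0.59 and 0.55, adjusted p = 0.000265 and 0.0105) and with the replicate number as a block (adjusted p = 0.0483 and 0.0403). Several cortical calls did not hold in every alternative. Without ischemic section 1 or 2, Atf4 (0.50 and 0.51, adjusted p = 0.108 and 0.108), Pdia4 (0.75 and 0.53, adjusted p = 0.0947 and 0.232) and Sdf2l1 (0.66 and 0.42, adjusted p = 0.146 and 0.367) lost their calls in the edgeR test, and Sdf2l1 also without normal section 1 (0.28, adjusted p = 0.241). Pdia4 and Sdf2l1 were lost in DESeq2 (adjusted p = 0.0764 and 0.188), and Sdf2l1 with RLE factors (adjusted p = 0.0804), zones scored without neighbours (adjusted p = 0.0979) and without boundary spots (adjusted p = 0.0584), so that it passed in 7 of 14 alternatives. Hspa5 gained a call without normal section 1 (0.35, adjusted p = 0.00515) or 2 (0.31, adjusted p = 0.00984), and Xbp1 without normal section 1 (0.39, adjusted p = 0.00228).

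The difference between the changes of the outer stripe and the cortex was tested as an interaction, with the section as a block. For 5 members it passed, 4 with a larger rise in the outer stripe and Herpud1 with a larger fall, where 21.5% of genes tested passed, 8.06% higher and 13.5% lower. With library sizes alone the share of calls that were higher moved from 37.5% to 61.5%. Without the block 3 members passed, where 626 of all genes tested passed higher and 1039 lower, against 1142 and 1907 with it. The neutrophil list was at 323 and 328 CPM in the ischemic outer stripe and at 68.7 and 82.0 CPM in the ischemic cortex (without TMM scaling), 1 of its 5 tested genes passed the same interaction test, their median difference was 2.04, and the part of these cells in the members' differences was not tested. Ddit3 differed by 1.46 (SE 0.17, edgeR adjusted p = 6.4e-06) and Atf4 by 0.99 (SE 0.12, adjusted p = 1.1e-05) on the log2 scale, and both passed in all 14 alternatives tried. Trib3 differed by 2.19 (SE 0.49, adjusted p = 0.0026). It lost the call without ischemic section 1 (2.11, adjusted p = 0.0824) or 2 (2.26, adjusted p = 0.0563). Chac1 differed by 1.44 (SE 0.48, edgeR adjusted p = 0.037) and Herpud1 by -0.40 (SE 0.14, adjusted p = 0.0399).

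The last 2 of these were less firm. Chac1 lost its call in edgeR without normal section 2 (0.68, adjusted p = 0.636), ischemic section 1 (1.51, adjusted p = 0.178) or ischemic section 2 (1.36, adjusted p = 0.209). It was also lost with zones scored without neighbours (0.79, adjusted p = 0.379), without the block (adjusted p = 0.0947) and in DESeq2 (adjusted p = 0.0781). Herpud1 lost it without ischemic section 1 (-0.44, adjusted p = 0.261) or 2 (-0.36, adjusted p = 0.353), with library sizes alone (-0.22, adjusted p = 0.284), with RLE factors (adjusted p = 0.0834), without the filter on low counts (adjusted p = 0.27), without boundary spots (adjusted p = 0.14) and without the block (adjusted p = 0.268). Asns did not differ by this test, at 0.10 with a 95% interval of -0.60 to 0.79. The other 4 members did not pass, with Hspa5 at 0.28 (unadjusted 95% interval -0.03 to 0.59), Xbp1 at 0.26 (-0.04 to 0.57), Sdf2l1 at 0.38 (-0.18 to 0.94) and Pdia4 at -0.56 (-1.04 to -0.08). Calls appeared with library sizes alone for Hspa5 (0.46, adjusted p = 0.0117), with zones scored without neighbours for Pdia4 (-0.63, adjusted p = 0.0432), without normal section 1 for Hspa5 (0.24, adjusted p = 0.0398) and without normal section 2 for Hspa5 (0.28, adjusted p = 0.0138), Xbp1 (0.38, adjusted p = 0.00432) and Pdia4 (-0.72, adjusted p = 0.00457), all in edgeR.

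In normal sections 3 of the 10 members differed between outer stripe and cortex, a number near the background, where 22.8% of genes tested were called, 12.5% higher and 10.3% lower. Of the members with a larger ischemic rise in the outer stripe, Atf4, Trib3 and Chac1 were not called here. With library sizes alone the share of calls that were higher moved from 54.9% to 31.6%. Asns was higher in the outer stripe by 1.26 (SE 0.27, edgeR adjusted p = 0.0015), and Herpud1 by 0.32 (SE 0.09, adjusted p = 0.0174). Ddit3 was lower there by -0.51 (SE 0.13, edgeR adjusted p = 0.0051), and this order was turned round in the ischemic sections, where its outer stripe levels (73.7 and 62.4 CPM) stood above its cortical levels (36.9 and 33.7 CPM). The Ddit3 call was lost without normal section 1 (-0.31, adjusted p = 0.116) and the Herpud1 call without ischemic section 1 (0.32, adjusted p = 0.0867) or 2 (0.32, adjusted p = 0.0844), with library sizes alone (0.17, adjusted p = 0.239), without the filter on low counts (adjusted p = 0.0602) and without the block (adjusted p = 0.197). Atf4 ranged in normal sections from 83.0 CPM in the pelvis to 121 CPM in the inner medulla. It was not called in the normal outer stripe, inner stripe or inner medulla against the cortex, and the pelvis was not tested against it.

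**Figure D3:**
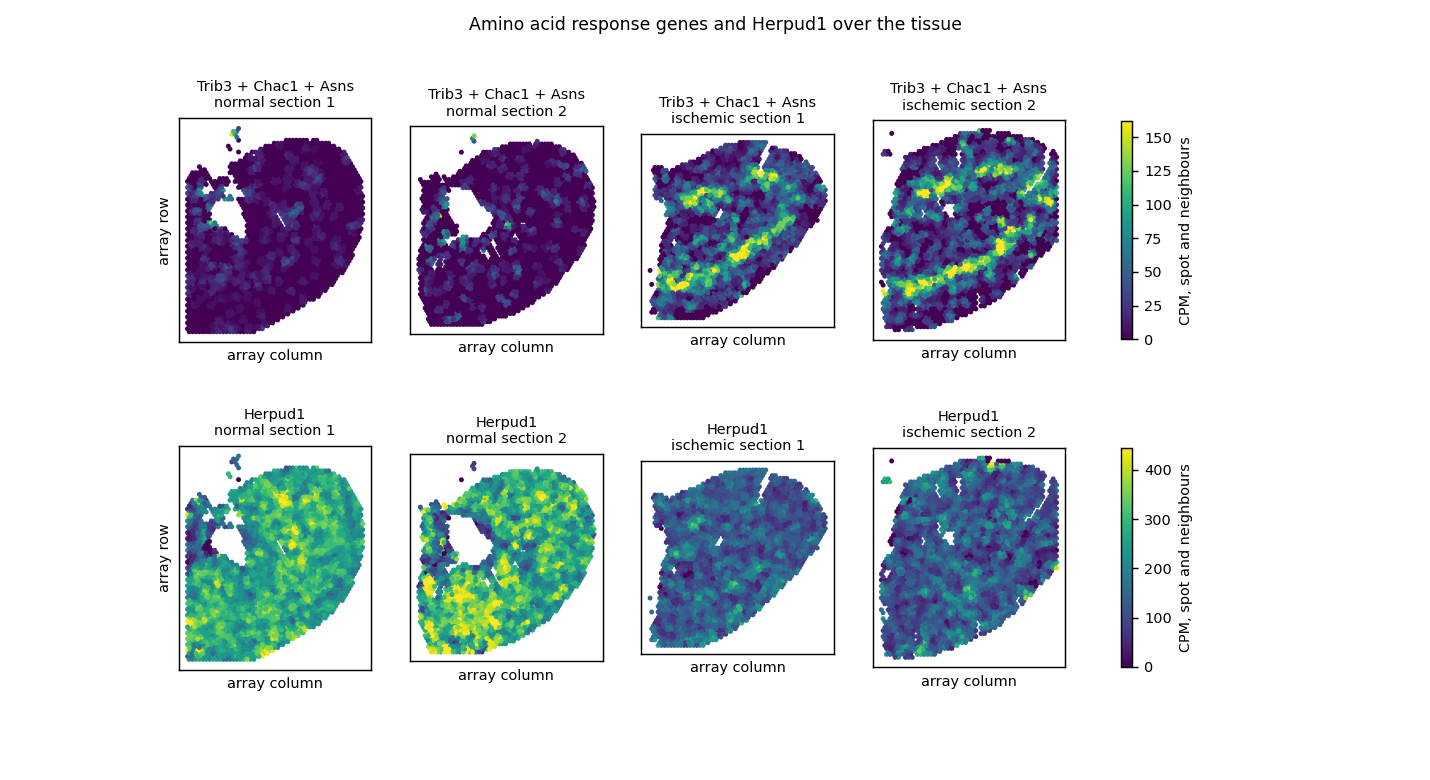
Summed Trib3, Chac1 and Asns (top) and Herpud1 (bottom) over the tissue of the 4 sections, as CPM of a spot and its neighbours, with colours capped at the highest 1% of values. In both ischemic sections the amino acid response genes form a band that follows the outer stripe and is not seen in the normal sections, while Herpud1 is lower over the whole section.

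The maps of summed Trib3, Chac1 and Asns show this band in both ischemic sections, on both sides of the medulla. The map of Herpud1 shows no such band, and its fall was called in every zone.

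In the inner stripe, which holds the thick ascending limbs, 8 members rose and 1 fell, where 48.2% of genes tested were called, 22.2% higher and 25.9% lower. Hspa5 was at 235 and 157 CPM in normal and 345 and 375 CPM in ischemic sections (log2 difference 0.87, edgeR adjusted p = 0.00035). Xbp1 was at 117 and 113 CPM in normal and 213 and 219.9 CPM in ischemic sections (log2 difference 0.91, adjusted p = 2.3e-05). Sdf2l1 rose by 1.19 (adjusted p = 0.00078), Atf4 by 1.18 (adjusted p = 7.3e-07) and Asns by 2.09 (adjusted p = 6.4e-05). The size of the Asns rise is uncertain, since it rested on 29 and 3 counts in normal sections and ranged from 1.51 to 4.10 over the alternatives. These inner stripe rises were all held when any 1 section was left out. Trib3 was called on 3 and 3 counts in normal and 43 and 33 counts in ischemic sections, so no fold is given. Herpud1 fell by 1.59 (edgeR adjusted p = 1.5e-07), from 341 and 283 to 102 and 106 CPM. Pdia4 (0.83, adjusted p = 0.0134) and Ddit3 (0.50, adjusted p = 0.0293) also rose, but lost their calls in edgeR without ischemic section 1 (adjusted p = 0.0736 and 0.154) or 2 (0.112 and 0.0765), Pdia4 without normal section 2 (0.0629), and Ddit3 without normal section 1 (0.0782). The Ddit3 call was also lost in DESeq2 (adjusted p = 0.0503). Chac1, at 2.80 and 3.81 CPM in normal and 4.48 and 4.19 CPM in ischemic sections, was the member without a call.

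Against the cortex, the ischemic change of the inner stripe differed for 5 members, where 19% of genes tested passed, 5.15% higher and 13.9% lower, and with library sizes alone the share of calls that were higher moved from 27.0% to 40.6%. Without the block 2 members passed, where 393 of all genes tested passed higher and 1183 lower, against 730 and 1969 with it. It was larger for Hspa5 by 0.52 (edgeR adjusted p = 0.0187), for Xbp1 by 0.59 (adjusted p = 0.00831), for Atf4 by 0.68 (adjusted p = 0.00065) and for Ddit3 by 0.62 (adjusted p = 0.0261). Without ischemic section 1 or 2 none of these 4 passed, with edgeR adjusted p from 0.0561 to 0.318, and Ddit3 also failed without normal section 1 (0.53, adjusted p = 0.0554). Chac1 differed the other way, by -2.36 (SE 0.48, edgeR adjusted p = 0.00145), and failed only without normal section 1 (-1.70, adjusted p = 0.0717) among the sections left out. In normal sections Chac1 was higher in the inner stripe than in the cortex, by 2.27 (edgeR adjusted p = 0.0003), and Hspa5 was lower, by -0.37 (adjusted p = 0.0121). Here 29.2% of genes were called, 14.2% higher and 15% lower (with library sizes alone the share of calls that were higher moved from 48.7% to 76.2%). Chac1 rested on 13 and 11 counts in the normal inner stripe and on 5 and 12 in the normal cortex. Its difference ranged from 1.62 to 3.04 over the alternatives. The Hspa5 call was lost without normal section 2 (-0.17, adjusted p = 0.132) or either ischemic section (-0.38 and -0.38, adjusted p = 0.0748 and 0.0697), with library sizes alone (-0.13, adjusted p = 0.282) and without the block (adjusted p = 0.158).

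In the spots called inner medulla 5 members rose and 1 fell, where 35.1% of genes tested were called, 13.9% higher and 21.2% lower. Hspa5 was at 192 and 143 CPM in normal and 355 and 375 CPM in ischemic sections (log2 difference 1.13, SE 0.18, edgeR adjusted p = 7.4e-05). Atf4 was at 113 and 121 CPM in normal and 250.1 and 226 CPM in ischemic sections (log2 difference 1.02, SE 0.14, adjusted p = 1.6e-05). Herpud1 fell by 0.98 (adjusted p = 0.00015), from 198 and 179 to 97.8 and 93.0 CPM. The values of these 3 genes did not overlap between conditions, and their calls held when any 1 section was left out. Xbp1 (0.43, adjusted p = 0.0252), Asns (1.21, adjusted p = 0.0281) and Trib3, on 4 and 1 counts against 28 and 19, also rose by the edgeR test. Xbp1 lost its call without ischemic section 1 (0.53, adjusted p = 0.118) or 2 (0.36, adjusted p = 0.29), Asns without normal section 2 (1.10, adjusted p = 0.0671), ischemic section 1 (1.16, adjusted p = 0.151) or ischemic section 2 (1.28, adjusted p = 0.104), and Trib3 without normal section 2 (adjusted p = 0.246) or ischemic section 1 (adjusted p = 0.103). Without boundary spots Xbp1 (adjusted p = 0.0583) and Trib3 (adjusted p = 0.102) were lost, and with zones scored without Cryab Trib3 (adjusted p = 0.0537) and Asns (0.74, adjusted p = 0.176).

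The ischemic change of the inner medulla exceeded that of the cortex for Hspa5, by 0.77 (edgeR adjusted p = 0.00241), and for Atf4, by 0.51 (adjusted p = 0.0167), where 13% of genes tested passed, 3.32% higher and 9.7% lower. Without the block neither passed (adjusted p = 0.0701 and 0.11), where 233 of all genes passed higher and 794 lower, against 470 and 1375. Nor did either pass without ischemic section 1 (0.81 and 0.46, adjusted p = 0.102 and 0.301) or 2 (0.74 and 0.58, adjusted p = 0.13 and 0.167), nor Atf4 without boundary spots (0.42, adjusted p = 0.0961). In normal sections Hspa5 was lower in the inner medulla than in the cortex by -0.61 (edgeR adjusted p = 0.0003), but with library sizes alone by -0.20 (adjusted p = 0.112). Herpud1 was also lower there, by -0.78 (adjusted p = 6.2e-06), and Xbp1 (0.36, adjusted p = 0.0174), Asns (1.66, adjusted p = 0.0064) and Chac1, on 2 and 6 counts (adjusted p = 0.0141), were higher, where 40.2% of genes were called, 19.6% higher and 20.6% lower (with library sizes alone the share of calls that were higher moved from 48.8% to 78.1%). Without normal section 2 the last 3 lost their calls (adjusted p = 0.712, 0.0566 and 0.18). Chac1 also failed without normal section 1 (adjusted p = 0.128) and Xbp1 without ischemic section 1 or 2 (0.36 and 0.35, adjusted p = 0.0675 and 0.0728). Xbp1 was at 0.08 without normal section 2 and at 0.07 with zones scored without neighbours (adjusted p = 0.652), and it was also lost without the block (adjusted p = 0.0585) and without the filter on low counts (adjusted p = 0.0714), as was Chac1 without boundary spots (adjusted p = 0.0635). Markers of other cells stood high in this normal zone (CPM without TMM scaling). The plasma and B cell list was at 62.0 and 590.4 CPM there against 17.4 and 29.5 CPM in the normal cortex, the red blood cell list at 48095 and 17062 CPM against 6254 and 11376 CPM, and the adipocyte list at 2922 and 649 CPM against 312 and 279 CPM. Their part in these differences was not tested.

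In the spots called pelvis, the zone of the urothelium, 4 members rose and 1 fell, where 25.2% of genes tested were called, 10.7% higher and 14.6% lower. The summed pelvis markers of these spots were at 5215 and 6336 CPM in normal and 766 and 1116 CPM in ischemic sections (without TMM scaling). Their inner stripe markers were at 1789 and 2959 CPM in normal and 4013 and 3351 CPM in ischemic sections. The changes below are therefore not those of urothelium alone, and the part of other tissue in them was not tested. Hspa5 was at 171 and 155 CPM in normal and 362 and 378 CPM in ischemic sections (log2 difference 1.18, edgeR adjusted p = 0.0001), and Atf4 at 90.4 and 83.0 CPM against 214 and 184 CPM (1.20, adjusted p = 9.1e-06). Xbp1 rose by 0.68 (adjusted p = 0.0021), and Chac1 was called on 2 and 3 counts against 9 and 10 (adjusted p = 0.0275). Herpud1 fell by 0.64 (edgeR adjusted p = 0.0095), from 185 and 143 to 119 and 90.8 CPM. Hspa5 and Atf4 held when any 1 section was left out. Chac1 did not when any of the 4 was left out (adjusted p from 0.053 to 0.18), with zones scored without neighbours (log2 difference 1.07 against 2.01, adjusted p = 0.45) or without boundary spots (adjusted p = 0.0636), nor did Xbp1 without ischemic section 1 (0.74, adjusted p = 0.0645) or 2 (0.62, adjusted p = 0.111), or Herpud1 without normal section 1 (-0.40, adjusted p = 0.0504), ischemic section 1 (-0.84, adjusted p = 0.0781) or ischemic section 2 (-0.46, adjusted p = 0.305).

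In the ischemic outer stripe the ATF4 branch was higher where injured tubule genes ranked highest. In the cortex and the inner stripe this was not so for every gene. The spots of each zone of each section were ranked by the mean log2 CPM of the 6 injured tubule genes in a spot and its neighbours and split into 3 groups of nearly equal size, with levels given as CPM without TMM scaling. The summed CPM of these genes followed this rank in the outer stripe and cortex, but was lower in the highest than in the lowest group of the inner stripe and the inner medulla of both sections. In the outer stripe, from the lowest to the highest group, Atf4 went from 243 to 330 CPM in ischemic section 1 and from 207 to 314 CPM in ischemic section 2. Ddit3 went from 54.9 to 82.9 CPM and from 51.7 to 70.2 CPM. In both sections the middle group lay between the other two for these genes. Chac1 went from 17.8 to 24.5 CPM and from 16.5 to 36.9 CPM, Asns from 28.3 to 53.4 CPM and from 39.8 to 49.1 CPM, and Trib3 from 9.93 to 24.2 CPM and from 19.0 to 20.8 CPM. The middle group was out of order for Trib3 in section 2, at 13.1 CPM, and for Chac1 in section 1, at 26.9 CPM.

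**Figure D4:**
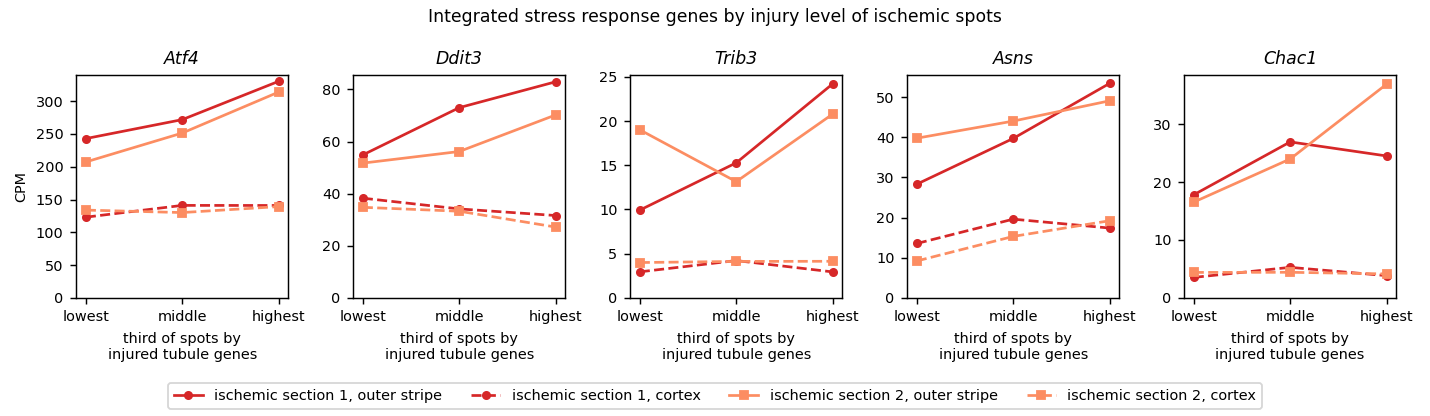
CPM (without TMM scaling) of the integrated stress response genes in 3 equal groups of ischemic spots ranked by injured tubule genes, in the outer stripe (solid lines) and the cortex (dashed lines) of both ischemic sections. Atf4 and Ddit3 climb along the rank in the outer stripe, while in the cortex Atf4 stays between 123 and 141 CPM and Ddit3 between 27.2 and 38.3 CPM.

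In the cortex Ddit3 went down, from 38.3 to 31.6 CPM and from 34.8 to 27.2 CPM, and Chac1 stayed between 3.53 and 5.27 CPM. Asns was the ATF4 target that was higher in the highest than in the lowest cortical group of both sections, at 17.4 against 13.5 CPM and 19.2 against 9.19 CPM. Hspa5 also went up in the outer stripe, from 338 to 444 CPM and from 378 to 457 CPM, and Herpud1 from 119 to 147 CPM and from 119.6 to 136 CPM. The neutrophil list moved along the same rank in the outer stripe, from 257 to 453 CPM and from 169 to 510.2 CPM, and its part in these gradients was not tested. Median depth ran from 15018 to 16450 UMIs in section 1 and from 11665 to 12597 UMIs in section 2 over the groups of the outer stripe. In the cortex the lowest group was shallower, at 9812 UMIs against 14237 and 13438 in section 1 and 6926 against 9912 and 9178 in section 2. The spots of a section are not replicates, so these gradients carry no test.

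In the inner medulla the ATF4 targets were also higher in the highest than in the lowest group of both sections. They did not all climb along the rank, since in section 2 the middle group of Asns lay below the other groups. Over all groups of that zone Trib3 held 28 and 19 counts and Chac1 27 and 16. From the lowest to the highest group Trib3 went from 2.36 to 18.3 CPM and from 7.24 to 10.5 CPM, Chac1 from 3.54 to 17.3 CPM and from 4.34 to 10.5 CPM, and Asns from 11.8 to 38.7 CPM and from 24.6 to 30.4 CPM. The neutrophil list went from 77.8 to 355 CPM and from 72.4 to 320 CPM over the same groups. In the inner stripe Chac1 and Asns were higher in the highest than in the lowest group of both sections, at 7.77 against 4.94 CPM and 7.17 against 5.74 CPM for Chac1, while Trib3 went from 8.46 to 12.9 CPM in section 1 and from 9.32 to 5.21 CPM in section 2.

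The members did not vary as a single set over zones. Correlations were taken over the 20 sums per section and zone, as log2(CPM + 1) after the mean of each condition had been subtracted. These sums share libraries and tissue, so the values are descriptions. Atf4 and Ddit3 had r = 0.70, Ddit3 and Trib3 0.65, and Hspa5 and Pdia4 0.67, whereas Herpud1 and Xbp1 had r = -0.76. Hspa5 and Herpud1 had r = 0.73 over these sums. Over the 10 sums of ischemic sections alone neither this value (-0.03) nor that of Hspa5 and Pdia4 (0.08) held. Over those 10 sums Atf4 and Ddit3 reached 0.93 and Asns and Chac1 0.94. Hspa5 there had r = 0.75 with Atf4, 0.62 with Ddit3, 0.79 with Trib3, 0.81 with Asns and 0.84 with Chac1.

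Genes among the most alike to each member over the 20 sums were found by the same measure. For Hspa5 they were Edem1, an ERAD mannosidase-like protein (r = 0.93), Pnp (0.92) and Blmh (0.91). For Herpud1 they were Micos10, a part of the mitochondrial cristae junction (0.97), B4galt5 (0.97) and Oxct1, an enzyme of ketone body use (0.97). For Atf4 they were Msn (0.87), Thbd (0.86) and Itga5 (0.83), and for Ddit3 Lyar (0.83), Pvr (0.83) and Eif4a3 (0.82). For Trib3 they were Ruvbl1 (0.87), Ywhag (0.86) and Rnf19b (0.84), for Asns the ribosomal protein genes Rps12 (0.92), Rps9 (0.90) and Rps6 (0.89), and for Chac1 Sh3glb1 (0.85) and Crct1 (0.82). For Pdia4 they were Nudt1 (0.84), Ube2r2 (0.82) and Zdhhc5 (0.81), for Sdf2l1 Emd (0.83), Slc15a3 (0.83) and Prrc2c (0.82), and for Xbp1 Cul7 (0.88) and Igfbp5 (0.87). Over the 10 ischemic sums other genes led, among them Atf3 for Ddit3 (0.99), and for Trib3 the spermidine synthase gene Srm (0.99) and the glycyl-tRNA synthetase gene Gars (0.97).

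The rest of the pathway was described from lists of related genes over whole sections. Of 15 other ATF4 targets of amino acid synthesis and transport, 11 rose and 2 fell, with a median log2 difference of 1.53. Of 12 aminoacyl-tRNA synthetases, which charge tRNAs and include many ATF4 targets, 12 rose with a median of 0.64. Of 16 other stress transcription factors and targets 11 rose and none fell, with a median of 1.02. These values stand beside 31% called higher and 29.7% called lower, with a median of 0.04, over all genes tested.

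In detail, the cystine transporter gene Slc7a11 was at 0.136 and 0.145 CPM in normal and 4.45 and 4.64 CPM in ischemic sections (log2 difference 4.98, edgeR adjusted p = 1.9e-06). Slc7a5, the large neutral amino acid transporter, rose by 3.22 (adjusted p = 5.8e-06) and Pycr1, an enzyme of proline synthesis, by 3.10 (adjusted p = 0.00031). Of the list members that fell, Cth, which makes cysteine from cystathionine, fell by 1.67 (from 159 and 136 to 47.9 and 45.0 CPM, adjusted p = 4.5e-06), and the mitochondrial serine hydroxymethyltransferase gene Shmt2 fell by 1.18 (adjusted p = 5.2e-05). Among the synthetases Iars (1.06), Lars (1.05) and Cars (0.96) rose most. Gdf15, a secreted stress factor, was at 25.3 and 31.3 CPM in normal and 197 and 188 CPM in ischemic sections (2.77, edgeR adjusted p = 5.4e-07), and Atf3, a transcription factor downstream of ATF4, rose by 2.47 (adjusted p = 6.1e-07). Fgf21, a stress hormone, was at 0.0813 and 0 CPM in normal and 1.24 and 1.29 CPM in ischemic sections, too few counts in normal sections for a fold.

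**Figure D5:**
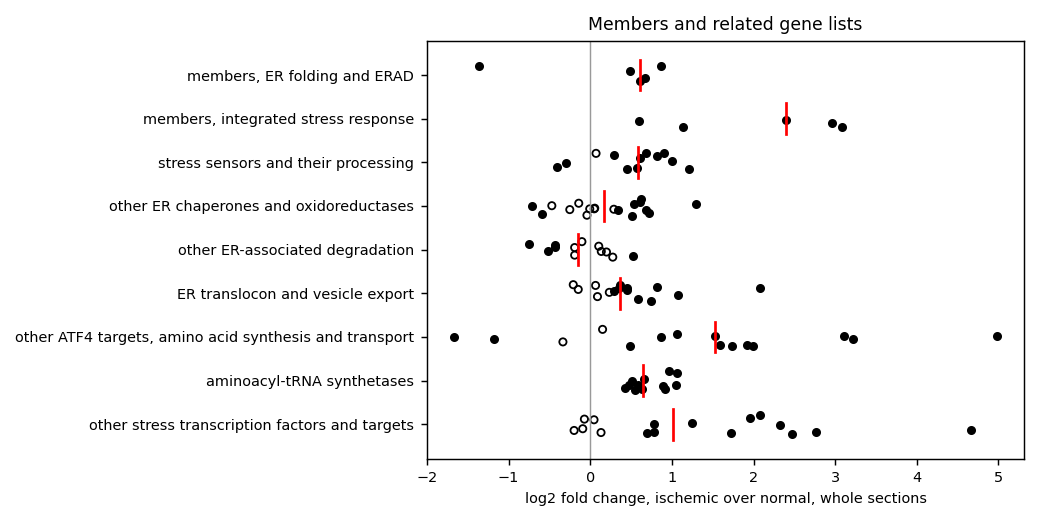
Log2 fold change (ischemic over normal, whole sections) of every tested gene of the member groups and the related lists, with filled circles for genes past the edgeR threshold, open circles for the others and a red line at the median of each list. The ATF4 targets and tRNA synthetases lie mostly to the right of 0, while other ER chaperones (median 0.17) and other ERAD genes (median -0.15) spread to both sides.

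Of 18 other ER chaperones and oxidoreductases, 8 rose and 2 fell, with a median of 0.17. Over all genes tested 60.6% were called, 31% higher and 29.7% lower. Hyou1, an ER chaperone of the Hsp110 group, was at 5.80 and 5.36 CPM in normal and 12.5 and 15.1 CPM in ischemic sections (log2 difference 1.3, edgeR adjusted p = 5.7e-05), and the disulfide isomerase Txndc5 (0.72, adjusted p = 0.00053) and Creld2 (0.68, adjusted p = 0.00045) followed. Sil1, the nucleotide exchange factor of BiP, fell by 0.72 (adjusted p = 0.0011) and Cnpy2 by 0.59 (adjusted p = 0.0061). Cnpy2 lost its call without ischemic section 1 (-0.60, adjusted p = 0.0874) or 2 (-0.56, adjusted p = 0.116).

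Of 12 other ERAD genes 1 rose and 4 fell, with a median of -0.15, and the number that fell was near the 29.7% of all genes called lower. The lectin gene Os9 fell by 0.75 (adjusted p = 0.00017), from 76.8 and 70.3 to 44.0 and 43.3 CPM. Edem1 (-0.52, adjusted p = 0.0025) and Erlec1 (-0.43, adjusted p = 0.0057) were also lower, and Ubxn4 was higher (0.52, adjusted p = 0.0013), all in edgeR. The calls of Edem1 (-0.45, adjusted p = 0.058) and Erlec1 (-0.44, adjusted p = 0.0596) were lost without ischemic section 1, that of Erlec1 also without ischemic section 2 (-0.41, adjusted p = 0.0784), and both with library sizes alone (-0.24 and -0.15, adjusted p = 0.119 and 0.321).

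Of 15 translocon and vesicle export genes 10 rose and none fell, with a median of 0.36, where 31% of all genes tested were called higher. The signal peptidase subunit gene Spcs3 was at 28.7 and 29.1 CPM in normal and 122 and 123 CPM in ischemic sections (2.08, adjusted p = 5.4e-07), and Sec24d (1.07, adjusted p = 1.6e-05) and Ssr1 (0.81, adjusted p = 0.00011) also rose by the edgeR test. Of 12 genes of the sensors and their processing 9 rose and 2 fell, with a median of 0.59, against the same 31% higher and 29.7% lower. The amino acid sensing kinase gene Eif2ak4 (1.20, adjusted p = 7.1e-05), Eif2s1, which encodes eIF2α (1.01, adjusted p = 2.2e-05), and Ppp1r15a, the stress-induced subunit of the eIF2α phosphatase (0.90, adjusted p = 0.0018), rose most. The heme-regulated kinase gene Eif2ak1 (-0.41, adjusted p = 0.0188) and Mbtps1, the protease that cleaves ATF6 (-0.30, adjusted p = 0.0184), were lower. Both lost their calls without ischemic section 1 (-0.38 and -0.25, adjusted p = 0.105 and 0.269) or 2 (-0.40 and -0.32, adjusted p = 0.0902 and 0.145), and with library sizes alone (-0.12 and -0.03, adjusted p = 0.499 and 0.871).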

How the data were processed

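Visium counts of 2 normal and 2 ischemic kidney sections were used. The authors ran Space Ranger 1.3.0 against mm10 (per the labels and the file headers) and deposited 1 matrix per section of raw, unnormalized counts of UMIs for every gene in every spot under tissue. Whether strand was used in counting was not stated in the sources used here. The symbol Ddit3 stands on 2 identifiers, of which ENSMUSG00000025408 held 4933 counts and the other 0. Groups came from the labels. Values of 1 zone were fitted in 1 model of 10 groups (a zone in a condition, 2 sections each). The sections held 44528078, 27657481, 31053530 and 25957128 UMIs.

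Counts were summed per section, or by zone within a section where a zone had 20 spots or more, and tested in edgeR 4.0.16 (R 4.3.3; filterByExpr, then TMM and the quasi-likelihood test, p adjusted by Benjamini-Hochberg over all genes tested, threshold 0.05; 95% intervals from its t quantiles). Contrasts between zones had the section as a block. CPM values were scaled by TMM factors unless stated. Zones came from lists of 4 to 6 marker genes: marker CPM of a spot and its neighbours was log-transformed, averaged and standardised within the section, and the highest score gave the zone. Pelvis spots needed at least 10 counts of the urothelial list and a place in the top 5% of the section. Likeness between genes was Pearson's r of log2(CPM + 1). Motifs were searched in RefSeq promoter windows of GRCm38.p6, and coordinates are of that build.

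The members and lists were chosen with earlier results of these data known. The rule for named genes took all members, Havcr1 and Lcn2, up to 3 largest called rises and falls without overlap in each related list over whole sections, and the 3 genes most like each member. Of the last, 2 are not reported here. In simulated counts for 15305 genes, edgeR recovered 90 of 100 genes changed by a log2 fold of 1 and 100 of 100 changed by 2 over whole sections, with 7 false calls. In the outer stripe, for 14174 genes, it recovered 82 and 100, with 10 false calls. For the difference of changes between outer stripe and cortex it recovered 37 and 100, with 9 false calls. The simulated counts were independent draws at a fixed dispersion, with no effect shared within a section. Only 200 genes were changed, all above the median level. These numbers therefore do not give the error rates of the tests on the real sections. Alternatives were DESeq2 1.42.0, RLE factors or library sizes alone, no filter on low counts, no mitochondrial genes, spots with at least 500 UMIs, each section left out, the replicate number as a block or no section block, zones without neighbours, without Cryab or without spots under 0.25 SD from a boundary.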

Additional observations from a re-analysis of the deposited data

Results flagged for a closer look

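For 12 pairs of a member and a zone, the change with ischemia differed from that of the cortex in the interaction test of edgeR with the section as a block and Benjamini-Hochberg adjustment. In the outer stripe the difference of log2 changes was 1.46 (SE 0.17, adjusted p = 6.4e-06) for Ddit3, 0.99 (SE 0.12, adjusted p = 1.1e-05) for Atf4, 2.19 (SE 0.49, adjusted p = 0.0026) for Trib3, 1.44 (SE 0.48, adjusted p = 0.037) for Chac1 and -0.40 (SE 0.14, adjusted p = 0.0399) for Herpud1. In the inner stripe it was 0.68 (SE 0.13, adjusted p = 0.00065) for Atf4, 0.59 (SE 0.15, adjusted p = 0.0083) for Xbp1, 0.52 (SE 0.15, adjusted p = 0.0187) for Hspa5, 0.62 (SE 0.19, adjusted p = 0.0261) for Ddit3 and -2.36 (SE 0.48, adjusted p = 0.00145) for Chac1. In the inner medulla it was 0.77 (SE 0.16, adjusted p = 0.0024) for Hspa5 and 0.51 (SE 0.14, adjusted p = 0.0167) for Atf4. Of the 14 alternatives, Ddit3 and Atf4 in the outer stripe passed in 14 and 14, Chac1 in the inner stripe in 13, Trib3 in the outer stripe and Atf4 in the inner stripe in 12, Hspa5 and Xbp1 in the inner stripe and Hspa5 in the inner medulla in 11, Ddit3 in the inner stripe and Atf4 in the inner medulla in 10, Chac1 in the outer stripe in 8 and Herpud1 in the outer stripe in 7. With 2 sections per condition and zone markers that fell with ischemia, a shift of the zone borders and a change within a zone cannot be told apart.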

How the results depend on the processing

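Over whole sections 10 members were called under every alternative but 1, with 8 without ischemic section 2, so that leaving out a section gave 8 to 10. The count of all genes changed ran from 6493 to 10877. For single members, 930 of the values under alternatives kept direction and side of the threshold, 103 lost a call, 13 gained one and 2 changed sign. Those 2 were Ddit3 in the cortex, at 0.12 with library sizes alone, and Asns in the difference between outer stripe and cortex, which ranged from -0.061 to 0.27 when 1 section was left out. The cause of these moves was not tested.

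With 1 section left out, the number of members called ranged from 4 to 8 in the cortex (7 with all), 3 to 7 in the inner medulla (6), 7 to 9 in the outer stripe (9), 7 to 8 in the inner stripe (9) and 2 to 4 in the pelvis (5). For normal zones against the cortex it ranged from 2 to 5 in the outer stripe (3), 1 to 4 in the inner stripe (2) and 2 to 5 in the inner medulla (5). For the difference of ischemic changes it ranged from 2 to 7 in the outer stripe (5), 1 to 6 in the inner stripe (5) and 0 to 2 in the inner medulla (2). When either ischemic section was left out, fewer of all genes tested were also called in each of these comparisons, both higher and lower. Without neighbours in the zone scores 5 members differed between normal outer stripe and cortex. Over all genes 2239 were then called higher and 1851 lower, against 1775 and 1461 in the main fit. With library sizes alone 1 member differed between normal inner stripe and cortex. There 3644 of all genes were called higher and 1137 lower, against 2011 and 2122 in the main fit. For the inner medulla difference of changes, zones without Cryab gave 4 members and leaving out boundary spots gave 1. Of all genes, 499 were called higher and 1558 lower without Cryab. Without boundary spots they were 418 and 1048, against 470 and 1375 in the main fit. Without the section as a replicate block, 3 members differed in the change of outer stripe against cortex, 2 in that of the inner stripe, 0 in that of the inner medulla, and 1 between normal inner stripe and cortex. For the 0 above, edgeR gave 4 members at an unadjusted p under 0.05, and 3 and 3 where an ischemic section was left out, while DESeq2 called 2.

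Normal and ischemic sections share replicate numbers in the labels, but with 2 pairs and a correlation of 0.219 between the section differences over 15305 genes nothing shows that the numbers pair animals. With the number as a replicate block, 10 members and 10089 genes were called over whole sections, and by zone 9 members in the cortex, 9 in either stripe of the outer medulla, 5 in the pelvis, and 7 members in the inner medulla. That block also gave more calls over all genes tested, higher and lower, in each of these comparisons. Depth limits the low genes: Trib3, Chac1 and Asns rested on as few as 1, 2 and 3 counts in a zone of a section.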
